A study of Mus musculus with 18 samples.

Results

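The genes described here are 40 genes of DNA replication and mitosis, taken by their symbols from the 23953 gene rows of the deposited expression table, where all 40 were found. They were measured by RNA sequencing in naive CD4 T cells of C57BL/6 mice, sorted as CD4+CD25- cells with a naive surface phenotype. There were 6 genotypes with 3 libraries each, 18 libraries in all. Cluster Tg mice over-express the whole miR-23 cluster in T cells, and a single member of it is over-expressed in mice called miR-23 Tg, in those called miR-24 Tg and in miR-27 Tg mice. DKO mice lack both clusters, a and b, in T cells. WT mice were the control, and the genotype label of the DKO and WT samples also carries the letters "Tg". The promoter of the transgenes, the Cre line of the deletion, the age of the mice, and whether each library came from a separate mouse are not given in the labels. The p-values given set differences between genotypes against the spread of these libraries, and that spread may be technical. Values are RPKM (read numbers scaled to transcript length and library size). Of the 40 genes, 37 passed the filter of at least 1 RPKM in at least 3 libraries and were tested. Cdc6, Ccnb1 and Bub1 did not pass it.

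Cells that copy their DNA first load the Mcm2 to Mcm7 helicase onto replication origins, a step called licensing, which needs Cdc6 and Cdt1 and is held in check by geminin (Gmnn). Ribonucleotide reductase (Rrm1 and Rrm2), thymidine kinase (Tk1) and thymidylate synthase (Tyms) supply the nucleotides. D-type cyclins with Cdk4 and Cdk6 phosphorylate the retinoblastoma protein Rb1 and so release E2F factors, which switch on S phase genes. Cyclins E, A and B with Cdk2 and Cdk1 then drive the cell through S phase and into mitosis. Naive T cells are quiescent: they keep the G1 parts of this machinery ready and divide only after activation or, rarely, in homeostasis. MicroRNAs lower mRNAs that carry a match to the microRNA seed (its bases 2 to 8), most often in the 3′ UTR. In other cells, E2f2 and H2afx mRNAs are known as targets of miR-24.

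The seeds of the 3 microRNAs are the sequences that set the study's genotypes apart, so the mature forms of the a cluster on chromosome 8 are shown, from RefSeq on GRCm38.p6, with the seed in capitals. They lie at chr8:84208563-84208583, chr8:84208727-84208747 and chr8:84208875-84208896, all on the plus strand, and no seed is shared between them.
mmu-miR-23a-3p: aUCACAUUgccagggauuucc
mmu-miR-27a-3p: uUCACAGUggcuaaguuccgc
mmu-miR-24-3p: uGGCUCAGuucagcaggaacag

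Matches to a seed were sought in the longest 3′ UTR of each gene (GENCODE M21 on GRCm38), as 8mers, 7mers to bases 2 to 8, or 7mers to bases 2 to 7 before an A. A match is a description of the letters, not a site of action. For miR-24, 12 of the 40 genes held a match (30%, against 26.1% of all tested genes), for miR-27 10 (25%, against 28.5%) and for miR-23 5 (12.5%, against 24.0%). The genes with a miR-24 match were Mcm2, Cdc6, Tk1, Tyms, Cdk1, Cdk2, Cdk6, Birc5, Plk1, E2f2, Cdkn1b and H2afx. Those with a miR-27 match were Mcm4, Mcm6, Rrm2, Tyms, Ccna2, Cdk1, Cdk6, Birc5, Aurka and Cdkn1a, and those with a miR-23 match were Mcm5, Cdt1, Cdk6, Birc5 and H2afx. The matches of Mcm2, the one member called in miR-24 Tg, and of E2f2 and H2afx, which are known from other cells as miR-24 targets, are printed with the bases that pair with the seed (and the A beside it in an 8mer) in capitals. That of Mcm2 lies at chr6:88883943-88883968 on the minus strand and that of E2f2 at chr4:136193706-136193731 on the plus strand. The H2afx matches are at chr9:44335264-44335289 and chr9:44335944-44335969 for miR-24 and at chr9:44335751-44335776 for miR-23, on the plus strand.
Mcm2, miR-24 match: ggctcggtcaccacgCTGAGCCtacg
E2f2, miR-24 match: gatgtcttatctttcCTGAGCCtccc
H2afx, first miR-24 match: cctcacagaaagagCTGAGCCActtc
H2afx, second miR-24 match: gaatccctgtctggaCTGAGCCtctg
H2afx, miR-23 match: ccaaaaatggttgtAATGTGAAccca

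Between 10103 and 10615 genes per library reached 1 RPKM. The number of reads is unknown. The naive CD4 T cell markers Cd4, Cd3e, Cd3g, Ccr7, Il7r, Lef1 and Tcf7 were present in every library, with a summed level of 2645 to 4422 RPKM. On the first principal component, miR-27 Tg replicate 3 and, less so, DKO replicate 3 were far from the other 16 libraries. Genes were split into 3 equal sets by the length of their longest protein-coding transcript in GENCODE M21. In miR-27 Tg replicate 3 and DKO replicate 3 the shortest set was raised (median log2 of 0.82 and 0.38) and the longest lowered (-0.65 and -0.37). All 35 calls in comparisons of 2 groups held with both libraries left out together. Calls that were lost with miR-27 Tg replicate 3 alone left out are named beside their values. Of the 3 miR-23 Tg columns 2 have the same name in the header, and they are called columns 3 and 4 here. Libraries of a genotype are listed in the order replicate 1, 2 and 3, and for miR-23 Tg in the order column 3, column 4 and replicate 1.

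Levels of the 40 genes spanned a wide range in these cells. Averaged over the 18 libraries, the highest were the G1 genes and the sliding clamp of the replication fork: the inhibitor Cdkn1b (141 RPKM), the D-type cyclins Ccnd3 (116 RPKM) and Ccnd2 (109 RPKM), the kinase Cdk4 (86.9 RPKM) and the clamp Pcna (83.7 RPKM). The lowest were the mitotic cyclin Ccnb1 (0.399 RPKM), the spindle checkpoint kinase Bub1 (0.418 RPKM) and the origin loader Cdc6 (0.693 RPKM). The proliferation antigen Mki67 lay between 0.645 and 9.03 RPKM over the 18 libraries. The list holds genes that resting G1 cells also use beside genes of S phase and mitosis, so its name covers only the second set.

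Against WT, 13 of the 37 tested genes rose in miR-27 Tg (35.1%) and 0 fell, beside 5.77% of all tested genes that rose, 3.18% that fell and 8.95% called in either direction. The risers were Mcm7, Rrm2, Tk1, Tyms, Ccna2, Ccnb2, Ccnd3, Cdk1, Cdk2, Aurkb, Plk1, E2f2 and Cdkn2c. In cluster Tg against WT 6 rose (Mcm7, Rrm2, Tk1, Ccnb2, E2f2 and Cdkn2c) and Mcm2 fell, beside 5.63% of all tested genes that rose, 2.85% that fell and 8.48% called in all. In cluster Tg against DKO 13 rose and 1 fell, beside 7.14% of all tested genes higher, 4.2% lower and 11.3% called. In miR-24 Tg 1 gene, Mcm2, fell and 0 rose, beside 1.26% of all tested genes that fell, 2.32% that rose and 3.59% called. Calls are at a limma adjusted p under 0.05, with the Benjamini-Hochberg adjustment over all 11099 tested genes, and fold changes are differences of log2(RPKM + 1), a scale that compresses the change of genes near or under 1 RPKM.

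In miR-23 Tg limma called 0 of the 37 genes against WT, beside 0.045% of all tested genes, and 3 had an unadjusted p under 0.05 (Cdk2, E2f2 and Cdkn1b), as did 847 of all 11099 genes. In DKO limma called 0 of the 37 genes against WT, beside 0% of all tested genes, and 1 had an unadjusted p under 0.05 (Mki67; 81 of all 11099 genes did). Across the 6 genotypes, the F test called 19 of the 37, beside 19% of all tested genes. The median log2 fold change of the 37 genes was 0.46 in miR-27 Tg (0.03 over all tested genes), 0.21 in cluster Tg (0 over all) and -0.01 in miR-24 Tg (0.01 over all). It was -0.02 in miR-23 Tg (0.01 over all) and -0.12 in DKO (0.01 over all). Comparisons with WT share the 3 WT libraries. In these bulk samples, a higher share of cycling cells and more RNA of these genes per cell cannot be told apart.

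**Figure D1:**
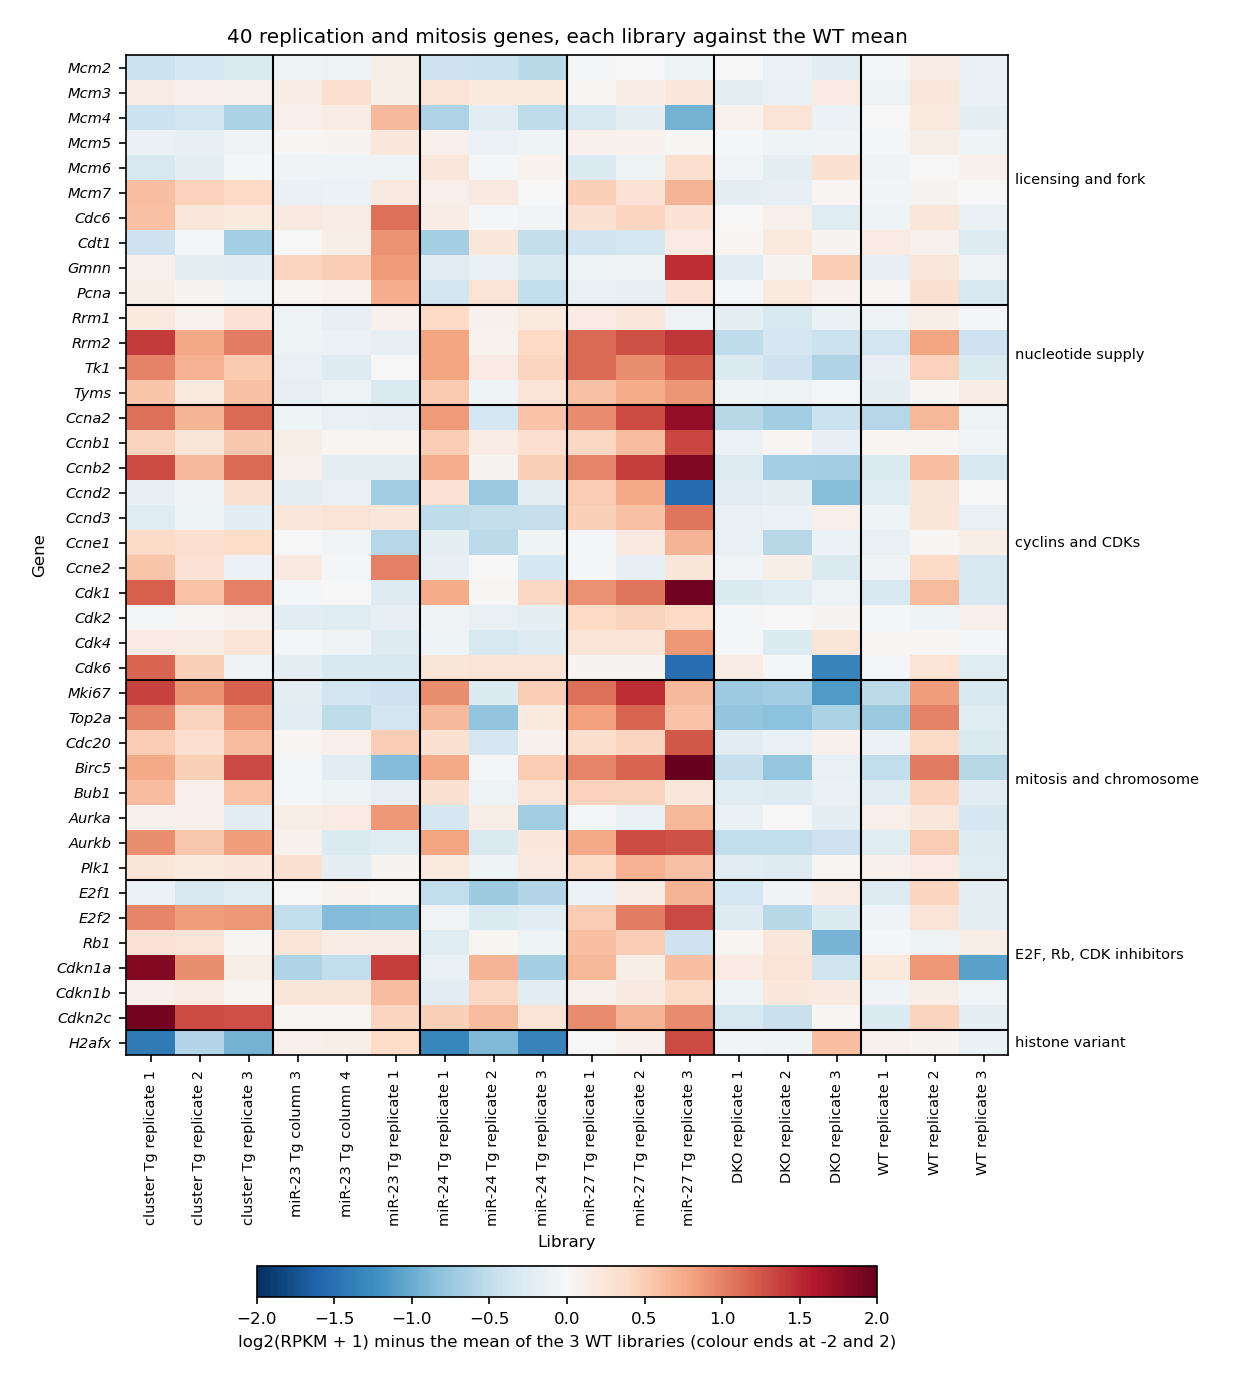
Heat map of the 40 genes (down, grouped by role) in the 18 libraries (across, grouped by genotype), as log2(RPKM + 1) minus the mean of the 3 WT libraries, with colours ending at -2 and 2. Rrm2, Tk1, Ccna2, Ccnb2 and Mki67 are above the WT mean in every cluster Tg and miR-27 Tg library and below it in every DKO library, and within WT they are highest in replicate 2.

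Of the 10 licensing and fork genes, 9 were tested, and their calls went both ways. Mcm2, a helicase subunit, stood at 22.5, 23.6 and 25.01 RPKM in cluster Tg, at 28.6, 28.3 and 33.3 in miR-23 Tg, at 22.7, 22.3 and 20.8 in miR-24 Tg, at 29.6, 30.6 and 28.2 in miR-27 Tg, at 30.2, 27.9 and 25.8 in DKO, and at 29.9, 33.9 and 27.8 in WT. All cluster Tg and all miR-24 Tg libraries lay below all WT libraries and below all DKO libraries. It fell in cluster Tg by 0.35 on the log2 scale (SE 0.10, limma adjusted p = 0.0371) and in miR-24 Tg by 0.46 (SE 0.10, adjusted p = 0.0173), and was not called in miR-27 Tg (log2 -0.05, adjusted p = 0.759). Against DKO its difference in cluster Tg did not pass the test (log2 -0.23, adjusted p = 0.161). The call in cluster Tg was lost without WT replicate 1, WT replicate 2 or any 1 of the 3 cluster Tg libraries (adjusted p up to 0.171, without WT replicate 2), and that in miR-24 Tg without WT replicate 1 or 2 or miR-24 Tg replicate 1 or 3 (adjusted p up to 0.0921, without WT replicate 2).

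Mcm7, a subunit of the same helicase, stood at 34.3, 31.2 and 29.9 RPKM in cluster Tg, at 20.3, 20.5 and 25.6 in miR-23 Tg, at 24.1, 25.4 and 22.5 in miR-24 Tg, at 31.4, 27.6 and 36.4 in miR-27 Tg, at 19.4, 19.8 and 23.1 in DKO, and at 21.4, 23.2 and 22.5 in WT. Here all cluster Tg and all miR-27 Tg libraries lay above all WT and all DKO libraries, while those of miR-24 Tg and miR-23 Tg overlapped WT. It rose in cluster Tg (log2 0.49, SE 0.12, limma adjusted p = 0.0182) and in miR-27 Tg (log2 0.48, SE 0.12, adjusted p = 0.0196), and in cluster Tg against DKO (log2 0.59, adjusted p = 0.00482). Exons of Mcm7 overlap those of Ap4m1 and Cops6 on the opposite strand, so reads of these genes may be mixed. Mcm4, another subunit of the ring, stood at 27.1, 28.4 and 23.4 RPKM in cluster Tg, at 39.6, 40.8 and 58.5 in miR-23 Tg, at 23.6, 31.8 and 25.5 in miR-24 Tg, at 29.7, 32.4 and 18.7 in miR-27 Tg, at 38.8, 44.8 and 33.7 in DKO, and at 36.7, 42.2 and 32.02 in WT. Its cluster Tg and miR-24 Tg libraries lay below all WT libraries, yet only the F test across genotypes called it (adjusted p = 0.0342), with log2 values against WT of -0.47 for cluster Tg and -0.44 for miR-24 Tg (adjusted p = 0.205 and 0.345). Subunits of a single ring therefore stood on both sides of WT in cluster Tg.

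The other licensing and fork genes were called in no comparison. Mcm3 lay between 19.6 and 28.0 RPKM over the 18 libraries, Mcm5 between 15.5 and 20.5, and Mcm6 between 26.7 and 42.4. The origin loader Cdt1 (20.7 to 63.8 RPKM), its inhibitor Gmnn (7.51 to 28.2 RPKM) and Pcna (57.2 to 134 RPKM) spread more widely, with Cdt1 and Pcna highest in miR-23 Tg replicate 1 and Gmnn in miR-27 Tg replicate 3. The 9 tested genes had a median log2 fold change of -0.01 in miR-27 Tg and -0.12 in cluster Tg against WT, and of -0.20 in cluster Tg against DKO. Cdc6 was under 1 RPKM in 16 of the 18 libraries and was highest in miR-23 Tg replicate 1, at 2.11 RPKM.

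The 4 nucleotide supply genes moved in a single direction where they were called. Rrm2, the regulated subunit of ribonucleotide reductase, stood at 10.95, 6.78 and 8.27 RPKM in cluster Tg, at 3.25, 3.19 and 3.05 in miR-23 Tg, at 6.83, 3.77 and 5.0 in miR-24 Tg, at 8.95, 9.93 and 11.3 in miR-27 Tg, at 2.19, 2.59 and 2.39 in DKO, and at 2.5, 6.86 and 2.42 in WT. The miR-27 Tg libraries lay above all WT libraries. In cluster Tg, replicate 2 lay just below WT replicate 2, the only overlap, and all cluster Tg libraries lay above all DKO libraries. Rrm2 rose in miR-27 Tg (log2 1.28, SE 0.27, limma adjusted p = 0.00994), in cluster Tg (log2 1.07, SE 0.27, adjusted p = 0.0255) and in cluster Tg against DKO (log2 1.49, adjusted p = 0.00275). Rrm1, the large subunit, was higher in level and much flatter, at 12.3, 11.1 and 13.1 RPKM in cluster Tg, at 9.78, 9.27 and 11.3 in miR-23 Tg, at 14.2, 11.2 and 12.2 in miR-24 Tg, at 11.9, 12.3 and 9.78 in miR-27 Tg, at 9.1, 8.26 and 9.56 in DKO, and at 9.71, 11.7 and 10.3 in WT. It was called only in cluster Tg against DKO, where the groups did not overlap (log2 0.40, SE 0.12, adjusted p = 0.0439).

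Tk1, the S phase thymidine kinase, stood at 4.36, 3.32 and 2.83 RPKM in cluster Tg, at 1.43, 1.25 and 1.68 in miR-23 Tg, at 3.63, 2.01 and 2.59 in miR-24 Tg, at 4.86, 4.08 and 5.07 in miR-27 Tg, at 1.23, 1.01 and 0.762 in DKO, and at 1.38, 2.67 and 1.2 in WT. All cluster Tg and all miR-27 Tg libraries lay above all WT libraries, and DKO replicate 3 was the lowest of the 18. Tk1 rose in miR-27 Tg (log2 1.08, SE 0.20, limma adjusted p = 0.00472), in cluster Tg (log2 0.73, SE 0.20, adjusted p = 0.0368) and in cluster Tg against DKO (log2 1.16, adjusted p = 0.00198). The exons of Tk1 overlap those of Afmid on the opposite strand. Tyms, which makes thymidylate, stood at 2.39, 1.65 and 2.48 RPKM in cluster Tg, at 1.08, 1.16 and 0.894 in miR-23 Tg, at 2.34, 1.19 and 1.78 in miR-24 Tg, at 2.47, 2.86 and 3.27 in miR-27 Tg, at 1.18, 1.17 and 1.29 in DKO, and at 1.05, 1.37 and 1.56 in WT, with the libraries of cluster Tg and miR-27 Tg again above all of WT. It rose in miR-27 Tg (log2 0.73, SE 0.15, adjusted p = 0.0095) and in cluster Tg against DKO (log2 0.51, adjusted p = 0.0468), while its value against WT in cluster Tg did not pass (log2 0.44, adjusted p = 0.1). The median log2 fold change of the 4 genes was 0.90 in miR-27 Tg, 0.59 in cluster Tg and 0.84 in cluster Tg against DKO.

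**Figure D2:**
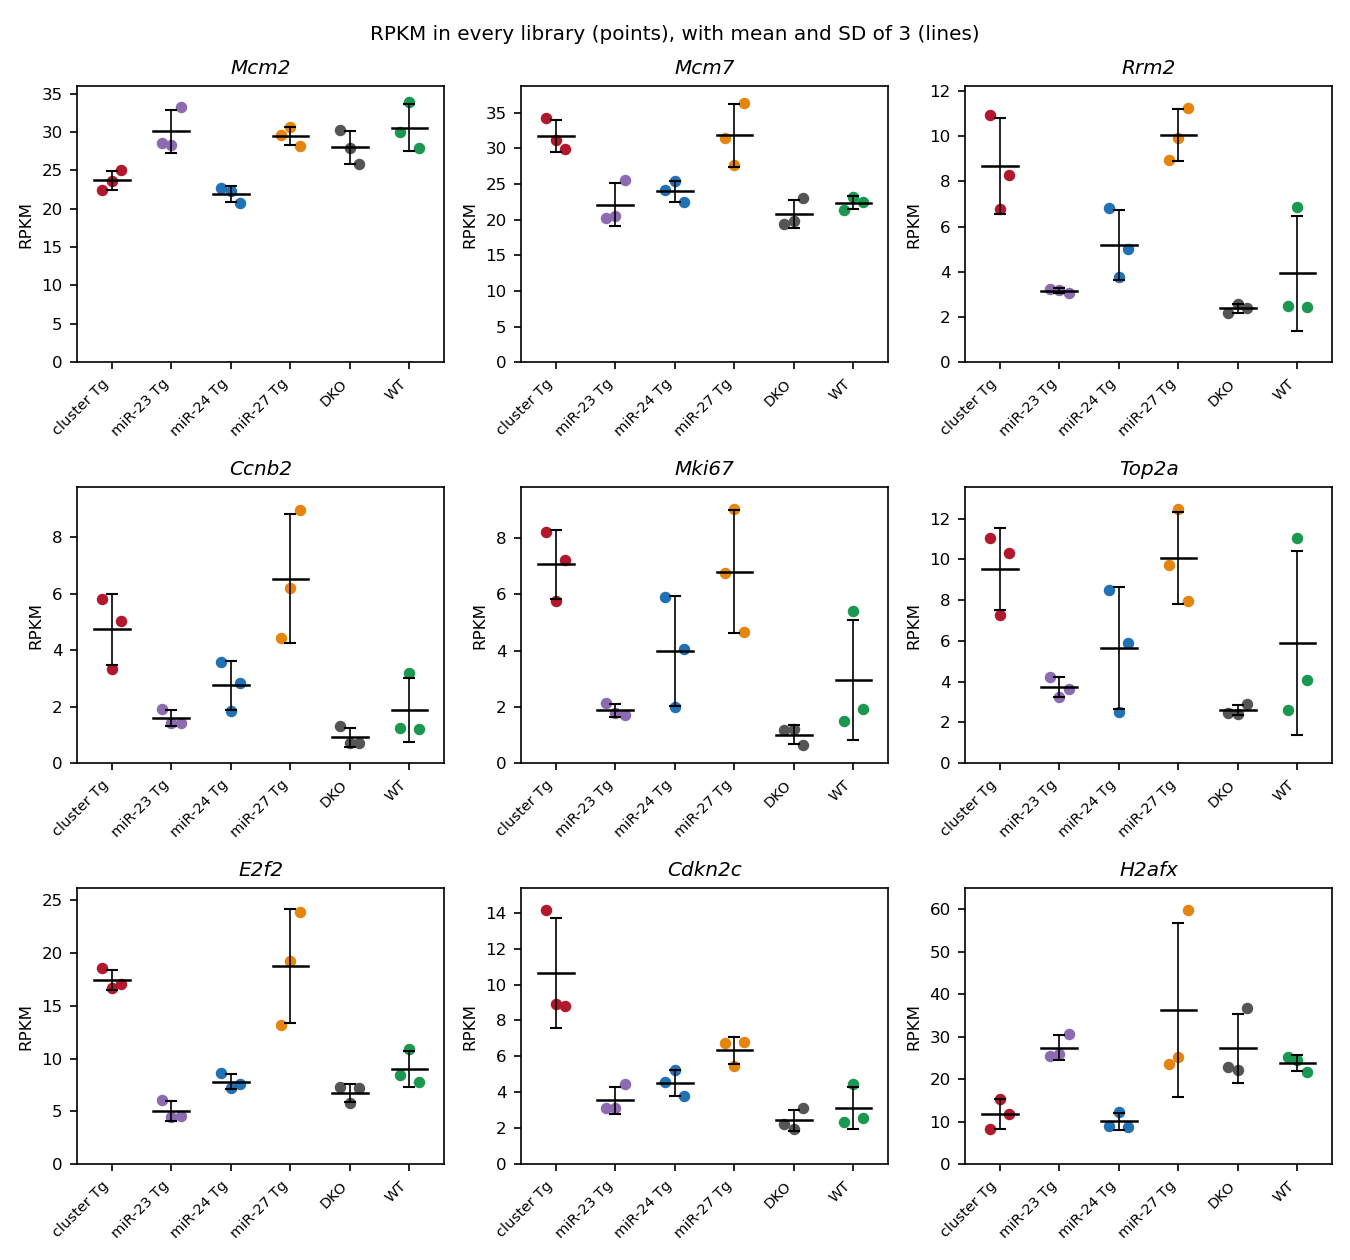
RPKM of 9 genes in every library of the 6 genotypes, with points for libraries and lines for the mean and SD of 3; each vertical axis starts at 0. Mcm2 is lowest in cluster Tg and miR-24 Tg, E2f2, Mcm7 and Rrm2 have their highest means in cluster Tg and miR-27 Tg, and WT replicate 2, the middle WT point, stands above the other WT libraries for Rrm2, Ccnb2, Mki67 and Top2a.

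Of 11 cyclin and kinase genes, 10 were tested. Ccnb2, a B-type cyclin of mitotic entry, stood at 5.82, 3.35 and 5.05 RPKM in cluster Tg, at 1.93, 1.44 and 1.42 in miR-23 Tg, at 3.58, 1.86 and 2.84 in miR-24 Tg, at 4.43, 6.2 and 8.99 in miR-27 Tg, at 1.32, 0.717 and 0.7 in DKO, and at 1.25, 3.19 and 1.23 in WT. The libraries of cluster Tg and miR-27 Tg lay above all WT libraries, and those of miR-24 Tg overlapped WT. Ccnb2 rose in miR-27 Tg (log2 1.40, SE 0.28, limma adjusted p = 0.00718), in cluster Tg (log2 1.03, SE 0.28, adjusted p = 0.036) and in cluster Tg against DKO (log2 1.58, SE 0.28, adjusted p = 0.00249).

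Ccna2, the cyclin of S phase and mitotic entry, stood at 4.21, 2.88 and 4.36 RPKM in cluster Tg, at 1.28, 1.2 and 1.16 in miR-23 Tg, at 3.37, 0.9 and 2.6 in miR-24 Tg, at 3.69, 4.97 and 7.25 in miR-27 Tg, at 0.659, 0.503 and 0.795 in DKO, and at 0.635, 2.87 and 1.27 in WT. All libraries of cluster Tg and miR-27 Tg lay above all WT libraries, although cluster Tg replicate 2 and WT replicate 2 were almost level. Ccna2 rose in miR-27 Tg (log2 1.34, SE 0.32, limma adjusted p = 0.0189, and 0.0537 without miR-27 Tg replicate 3) and in cluster Tg against DKO (log2 1.53, SE 0.32, adjusted p = 0.00725), and against WT in cluster Tg it had a log2 value of 0.97 (adjusted p = 0.0829). Its exons overlap those of Exosc9 on the opposite strand. Cdk1, the mitotic kinase that partners both cyclins, stood at 2.29, 1.12 and 1.89 RPKM in cluster Tg, at 0.388, 0.443 and 0.194 in miR-23 Tg, at 1.39, 0.459 and 0.912 in miR-24 Tg, at 1.71, 2.01 and 4.42 in miR-27 Tg, at 0.18, 0.211 and 0.339 in DKO, and at 0.149, 1.22 and 0.146 in WT. It reached 1 RPKM in 8 of the 18 libraries, of which 3 were cluster Tg, 3 miR-27 Tg, 1 miR-24 Tg and 1 WT. Cdk1 rose in miR-27 Tg (log2 1.31, SE 0.29, adjusted p = 0.0135) and in cluster Tg against DKO (log2 1.13, SE 0.29, adjusted p = 0.0229), and against WT in cluster Tg it had a log2 value of 0.93 (adjusted p = 0.0695).

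Ccnd3 and Cdk2 were called in miR-27 Tg against WT and in no other comparison of 2 groups. Ccnd3, a D-type cyclin of lymphocytes, stood at 91.6, 101.5 and 92.6 RPKM in cluster Tg, at 126, 131 and 127 in miR-23 Tg, at 75.4, 77.4 and 78.2 in miR-24 Tg, at 151, 162 and 229 in miR-27 Tg, at 97.6, 99.9 and 117 in DKO, and at 102, 128 and 97.04 in WT. The miR-27 Tg libraries were the 3 highest of the 18, and those of miR-24 Tg the 3 lowest. Ccnd3 rose in miR-27 Tg (log2 0.71, SE 0.15, limma adjusted p = 0.00783), while the lower value of miR-24 Tg did not pass (log2 -0.48, adjusted p = 0.0877). Cdk2, the kinase of cyclins E and A, stood at 28.05, 29.3 and 30.5 RPKM in cluster Tg, at 24.8, 24.1 and 25.6 in miR-23 Tg, at 27.4, 25.9 and 25.2 in miR-24 Tg, at 38.1, 39.7 and 38.1 in miR-27 Tg, at 28.3, 28.8 and 29.99 in DKO, and at 28.3, 27.00 and 30.98 in WT, with the miR-27 Tg libraries close together and above all of the other 15. It rose in miR-27 Tg (log2 0.42, SE 0.07, adjusted p = 0.00384) and was not called in cluster Tg against WT (log2 0.03, adjusted p = 0.929). Exons of Ccnd3 overlap those of Bysl, and exons of Cdk2 those of Pmel, on the opposite strand.

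Of the other cyclins and kinases, Ccnd2 (39.4 to 197 RPKM), Ccne1 (3.08 to 8.72 RPKM), Ccne2 (0.686 to 3.33 RPKM), Cdk4 (65.7 to 151 RPKM) and Cdk6 (0.675 to 9.88 RPKM) were called in no comparison. Ccnd2 was lowest in miR-27 Tg replicate 3 and highest in replicate 2 of the same genotype. Ccne1, which starts S phase with Cdk2, came close in cluster Tg against DKO (log2 0.63, limma adjusted p = 0.0537), and Cdk4 in the F test (adjusted p = 0.053). Ccnb1, the other B-type cyclin, reached 1 RPKM in 1 library only. It was listed at 0.543, 0.337 and 0.654 RPKM in cluster Tg, at 0.228, 0.167 and 0.169 in miR-23 Tg, at 0.603, 0.256 and 0.433 in miR-24 Tg, at 0.51, 0.767 and 1.88 in miR-27 Tg, at 0.0521, 0.17 and 0.017 in DKO, and at 0.167, 0.148 and 0.0915 in WT. With the filter on low values left out, Ccnb1 was called in miR-27 Tg against WT (log2 0.80, SE 0.18, adjusted p = 0.0173).

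Of 8 genes of mitosis and chromosome structure, 7 were tested. Mki67, which coats mitotic chromosomes and marks cycling cells, stood at 8.23, 5.77 and 7.21 RPKM in cluster Tg, at 2.16, 1.78 and 1.72 in miR-23 Tg, at 5.89, 1.99 and 4.07 in miR-24 Tg, at 6.75, 9.03 and 4.65 in miR-27 Tg, at 1.19, 1.22 and 0.645 in DKO, and at 1.51, 5.42 and 1.93 in WT. The 3 cluster Tg libraries lay above all WT libraries, the nearest being WT replicate 2, and all DKO libraries lay below all WT libraries. Mki67 rose in cluster Tg against DKO (log2 2.00, SE 0.34, limma adjusted p = 0.00185). Against WT, its log2 values of 1.15 in cluster Tg (adjusted p = 0.0543) and 1.07 in miR-27 Tg (adjusted p = 0.0704) did not pass the test. WT replicate 2 was the highest WT library for Mki67, so leaving it out raises both log2 values. Without it, both passed, at log2 values of 1.56 (adjusted p = 0.00974) and 1.49 (adjusted p = 0.0142). Neither passed without WT replicate 1 or without WT replicate 3.

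Top2a, the topoisomerase that untangles sister chromatids, stood at 11.1, 7.27 and 10.3 RPKM in cluster Tg, at 4.23, 3.27 and 3.66 in miR-23 Tg, at 8.5, 2.51 and 5.9 in miR-24 Tg, at 9.73, 12.5 and 7.97 in miR-27 Tg, at 2.48, 2.43 and 2.91 in DKO, and at 2.6, 11.04 and 4.09 in WT. WT replicate 2 was near the top of cluster Tg, and the other WT libraries were below every cluster Tg and miR-27 Tg library. Top2a rose in cluster Tg against DKO (log2 1.53, SE 0.39, limma adjusted p = 0.0206) and was not called against WT in cluster Tg (log2 0.78, adjusted p = 0.287) or miR-27 Tg (log2 0.85, adjusted p = 0.192). Without WT replicate 2, the WT library with the highest Top2a, it was called in both, with log2 values of 1.28 (adjusted p = 0.0386) and 1.35 (adjusted p = 0.0318). Top2a was called in neither without WT replicate 1 or without WT replicate 3. Aurkb, the kinase of the chromosomal passenger complex, stood at 2.22, 1.47 and 2.04 RPKM in cluster Tg, at 0.804, 0.403 and 0.43 in miR-23 Tg, at 1.93, 0.386 and 0.965 in miR-24 Tg, at 1.87, 3.19 and 3.09 in miR-27 Tg, at 0.209, 0.205 and 0.267 in DKO, and at 0.427, 1.41 and 0.413 in WT. Its cluster Tg and miR-27 Tg libraries lay above all WT libraries and its DKO libraries below them. Aurkb rose in miR-27 Tg (log2 1.11, SE 0.26, adjusted p = 0.0161) and in cluster Tg against DKO (log2 1.24, SE 0.26, adjusted p = 0.00736).

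Plk1, a kinase of mitotic entry and spindle assembly, stood at 2.25, 2.15 and 2.19 RPKM in cluster Tg, at 2.43, 1.43 and 1.86 in miR-23 Tg, at 2.15, 1.6 and 2.13 in miR-24 Tg, at 2.58, 3.48 and 3.16 in miR-27 Tg, at 1.38, 1.32 and 1.84 in DKO, and at 1.92, 2.1 and 1.33 in WT. The miR-27 Tg libraries were the 3 highest of the 18, and Plk1 rose there (log2 0.56, SE 0.15, limma adjusted p = 0.0328, and 0.0571 without miR-27 Tg replicate 3). Birc5, the survivin subunit of the passenger complex, stood at 4.79, 3.77 and 7.59 RPKM in cluster Tg, at 2.35, 1.95 and 0.877 in miR-23 Tg, at 4.78, 2.39 and 3.9 in miR-24 Tg, at 5.74, 6.66 and 21.7 in miR-27 Tg, at 1.5, 1.0 and 2.11 in DKO, and at 1.44, 6.06 and 1.34 in WT. Its spread was wide, with miR-27 Tg replicate 3 more than 3 times as high as the other libraries of that genotype and WT replicate 2 above the other WT libraries. Birc5 was called by the F test across genotypes (adjusted p = 0.0328) and by none of the comparisons of 2 groups, the nearest being miR-27 Tg against WT (log2 1.62, SE 0.48, adjusted p = 0.0503). Cdc20, which activates the anaphase ligase, and the spindle kinase Aurka were called in no comparison, at 2.03 to 8.05 and 1.59 to 6.66 RPKM over the 18 libraries. Bub1 was under 1 RPKM in every library, at 0.965, 0.378 and 0.908 in cluster Tg, against 0.0889, 0.0774 and 0.174 in DKO. With the filter on low values left out, Bub1 was called in cluster Tg against DKO (log2 0.64, SE 0.17, adjusted p = 0.0395).

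The 7 tested mitosis genes had a median log2 fold change of 0.85 in miR-27 Tg and 0.77 in cluster Tg against WT, and of 1.24 in cluster Tg against DKO. Of the 7, 2 rose in miR-27 Tg, 0 in cluster Tg against WT by limma and 3 in cluster Tg against DKO. In cluster Tg against WT 2 of them had an unadjusted p under 0.05, as did 2230 of all 11099 genes. In DKO against WT their median was -0.46, and limma called 0 (Mki67 had an unadjusted p under 0.05).

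**Figure D3:**
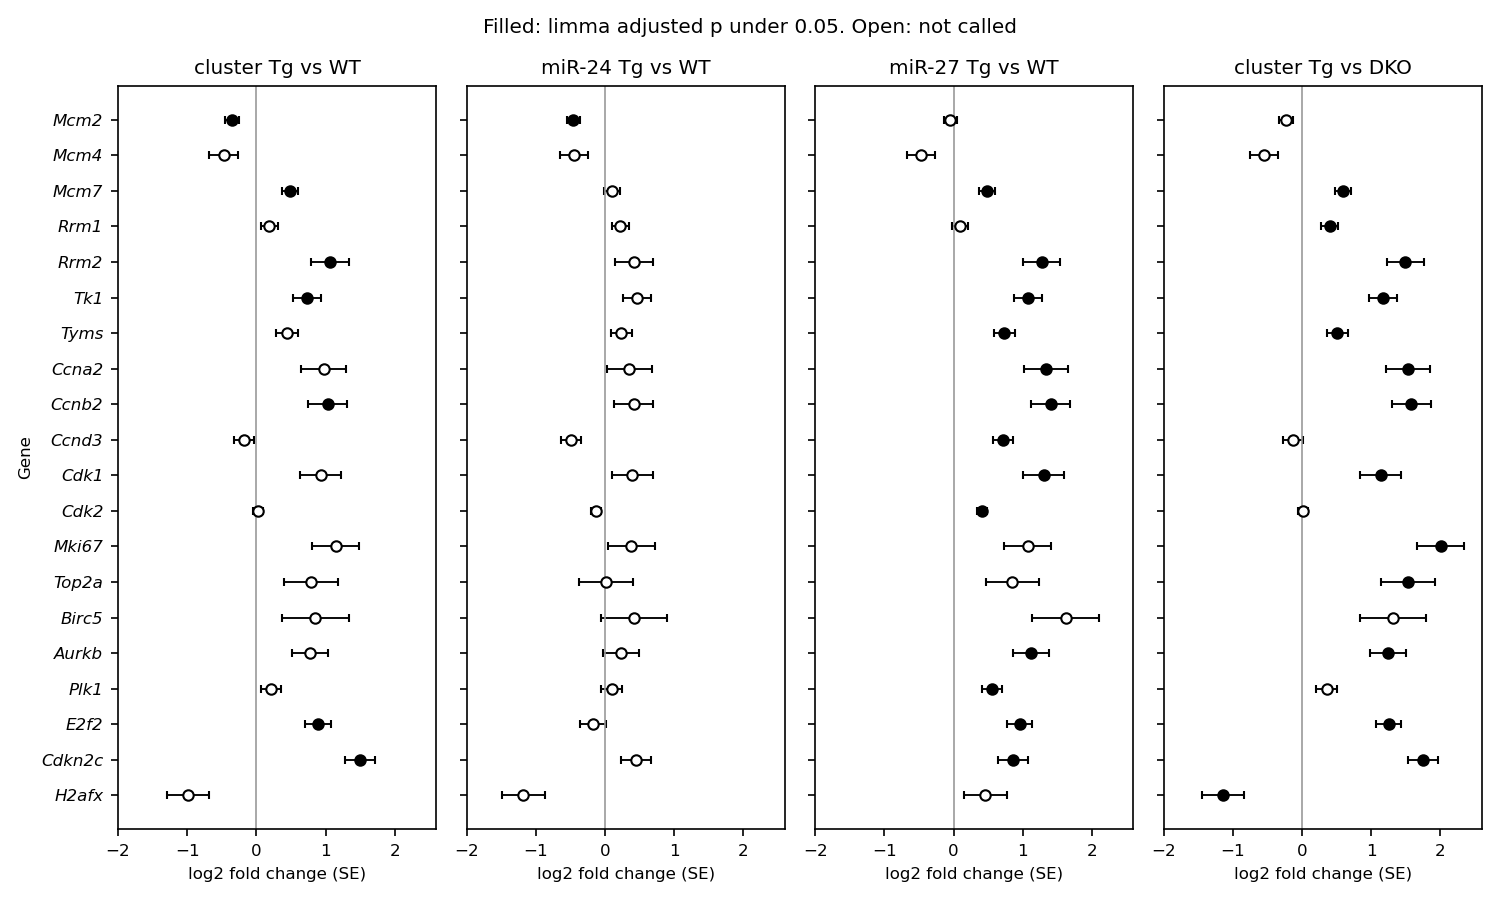
Log2 fold changes with SE of the 20 genes called in at least 1 comparison or in the F test, in 3 transgenics (cluster, miR-24 and miR-27) against WT and in cluster Tg against DKO; filled points were called by limma. Most filled points lie right of 0 in cluster Tg and miR-27 Tg, and the only ones left of 0 are Mcm2 in cluster Tg and miR-24 Tg against WT and H2afx in cluster Tg against DKO.

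Of the 6 E2F, Rb1 and inhibitor genes, E2f2 and Cdkn2c were called. E2f2, an E2F factor that activates S phase genes, stood at 18.6, 16.7 and 17.1 RPKM in cluster Tg, at 6.1, 4.45 and 4.52 in miR-23 Tg, at 8.6, 7.24 and 7.61 in miR-24 Tg, at 13.2, 19.3 and 23.9 in miR-27 Tg, at 7.3, 5.8 and 7.25 in DKO, and at 8.42, 10.9 and 7.74 in WT. All cluster Tg and miR-27 Tg libraries lay above all WT libraries, those of miR-24 Tg overlapped WT, and those of miR-23 Tg and DKO lay below it. E2f2 rose in miR-27 Tg (log2 0.95, SE 0.18, limma adjusted p = 0.00567), in cluster Tg (log2 0.89, SE 0.18, adjusted p = 0.00773) and in cluster Tg against DKO (log2 1.25, SE 0.18, adjusted p = 0.000599). In miR-24 Tg, whose transgene has the seed that matches the E2f2 3′ UTR, its log2 value was -0.18 (SE 0.18, adjusted p = 0.837). In miR-23 Tg it was -0.73 (SE 0.18, adjusted p = 0.224), a difference that passed without the 2 libraries that stood apart (adjusted p = 0.0302).

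Cdkn2c, the p18INK4c inhibitor of Cdk4 and Cdk6, stood at 14.2, 8.91 and 8.82 RPKM in cluster Tg, at 3.13, 3.13 and 4.44 in miR-23 Tg, at 4.58, 5.25 and 3.8 in miR-24 Tg, at 6.77, 5.47 and 6.78 in miR-27 Tg, at 2.24, 1.95 and 3.11 in DKO, and at 2.34, 4.47 and 2.57 in WT. Every cluster Tg library was above every library of the other genotypes, and those of miR-27 Tg lay above all WT libraries. Cdkn2c rose in cluster Tg (log2 1.5, SE 0.22, limma adjusted p = 0.000714), in miR-27 Tg (log2 0.86, SE 0.22, adjusted p = 0.024) and in cluster Tg against DKO (log2 1.74, SE 0.22, adjusted p = 0.000179). An inhibitor of the G1 kinases was thus called higher in the same comparisons as Rrm2, Ccnb2 and E2f2. The other inhibitors, Cdkn1b (p27, 109 to 195 RPKM) and Cdkn1a (p21, 0.141 to 7.59 RPKM), were called in no comparison, and nor were Rb1 (10.04 to 30.97 RPKM) and E2f1 (0.730 to 3.51 RPKM). E2f1 was lower in miR-24 Tg than in WT without overlap, but did not pass (log2 -0.60, adjusted p = 0.149).

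H2afx, the histone variant that is phosphorylated at DNA breaks, stood at 8.25, 15.4 and 11.8 RPKM in cluster Tg, at 25.5, 25.9 and 30.7 in miR-23 Tg, at 8.94, 12.4 and 8.78 in miR-24 Tg, at 23.6, 25.3 and 59.8 in miR-27 Tg, at 22.8, 22.1 and 36.7 in DKO, and at 25.1, 24.5 and 21.6 in WT. All cluster Tg and all miR-24 Tg libraries lay below every library of the other 4 genotypes. It fell in cluster Tg against DKO by 1.14 on the log2 scale (SE 0.31, limma adjusted p = 0.0273). That call was lost without cluster Tg replicate 1 or 3 or DKO replicate 3 (adjusted p up to 0.144). Against WT the log2 values of H2afx were -1.18 in miR-24 Tg (SE 0.31, adjusted p = 0.0505) and -0.99 in cluster Tg (SE 0.31, adjusted p = 0.0647), just short of the threshold. Both passed with the 2 libraries that stood apart left out (adjusted p = 0.00113 and 0.00163) and in fits of only the 6 libraries compared (adjusted p = 0.0141 and 0.026). Neither passed with no filter, with the replicate block described below or with any 1 of the libraries compared left out. Without WT replicate 2 the adjusted p was 0.148 in miR-24 Tg and 0.166 in cluster Tg. The miR-27 Tg replicate 3 value of 59.8 RPKM is more than 2 times as high as the others of its genotype, and the H2afx transcript is short, at 1384 bases, in a library where short transcripts were raised. In the same library Mki67 and Top2a, with transcripts of 10061 and 5221 bases, were the lowest of their genotype. E2f2, Cdk1 and Mcm6, with 4739, 4375 and 4355 bases, were the highest there. These lengths are of the longest protein-coding transcript of each gene in GENCODE M21, which may differ from the gene models behind the RPKM. The part of transcript length in these values was not tested.

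Members were also counted by their seed matches. In miR-24 Tg, 1 of the 11 tested members with a miR-24 match fell (Mcm2) and 0 rose, and their median log2 fold change was 0.10. Of the 26 tested members without a match, 0 fell and 0 rose, with a median of -0.04. The medians over all tested genes were -0.03 with a miR-24 match and 0.02 without. Over all tested genes with a 3′ UTR, 2.57% of those with a miR-24 match fell and 1.91% rose, against 0.838% and 2.64% of those without. In miR-27 Tg, 4 of the 10 members with a miR-27 match rose (Rrm2, Tyms, Ccna2 and Cdk1) and 0 fell, with a median of 0.60, and 9 of the 27 tested members without a match rose, with a median of 0.44. Over all tested genes the median was -0.12 with a miR-27 match and 0.09 without, 4.1% with a match and 6.85% without rose, and 5.24% with a match and 2.51% without fell. In miR-23 Tg, limma called 0 of the 5 members with a miR-23 match, and their median was 0.10. It called 0 of the 32 tested members without a match, with a median of -0.04. Over all tested genes with a match, 0.127% fell and 0% rose, with a median of 0.04. Without a match 0% fell and 0.0134% rose, so almost no gene was called with or without a match.

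The promoters of the members were read for 3 short motifs known from cell cycle genes: the CCAAT box, the cell cycle homology region (CHR, TTTGAA) and E2F-type words (TTTGGCGC, TTTCGCGC, TTTCCCGC or TTTGGCGG). Both strands were searched from 250 bases before to 50 after the start, in RefSeq promoters on GRCm38.p6, and matches may overlap each other. Promoters were matched for 32 of the 40 genes. A gene was counted with a motif if any of its promoters held it, whereas the shares of all promoters are per promoter. E2F-type words stood in 9 of the 32 (28.1%, against 5.35% of tested genes and 2.37% of all 32851 promoters), among them 6 of the 8 licensing and fork genes matched (Mcm3, Mcm5, Mcm6, Mcm7, Cdc6 and Cdt1) and 0 of the 7 mitosis genes. The CHR stood in 9 (28.1%, against 14.0% of tested genes and 17.9% of all promoters), among them 5 of the 7 mitosis genes (Mki67, Top2a, Cdc20, Aurka and Plk1). CCAAT stood in 22 (68.8%, against 43.1% of tested genes and 37.4% of all promoters).

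The promoters of Ccnb2, Mki67 and E2f2 are shown as a pair with the same CCAAT and CHR counts beside a gene with E2F-type words, with every match to the 3 motifs in capitals. Ccnb2, at chr9:70421505-70421804 on the minus strand, and Mki67, at chr7:135716330-135716629 on the minus strand, each held 3 CCAAT boxes and 2 CHR words. E2f2, at chr4:136172024-136172323 on the plus strand and the first of its 2 RefSeq promoters, held 1 CCAAT box and 2 E2F-type words. The second E2f2 promoter, not printed, held 3 CCAAT boxes and 1 CHR word, and only through it is E2f2 counted with a CHR.
Ccnb2 promoter: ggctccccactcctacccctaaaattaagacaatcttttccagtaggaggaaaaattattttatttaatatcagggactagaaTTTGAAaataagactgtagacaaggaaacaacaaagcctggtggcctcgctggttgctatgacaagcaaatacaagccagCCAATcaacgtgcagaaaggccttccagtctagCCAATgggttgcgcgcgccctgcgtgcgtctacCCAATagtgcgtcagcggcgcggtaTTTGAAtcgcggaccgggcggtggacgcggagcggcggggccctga
Mki67 promoter: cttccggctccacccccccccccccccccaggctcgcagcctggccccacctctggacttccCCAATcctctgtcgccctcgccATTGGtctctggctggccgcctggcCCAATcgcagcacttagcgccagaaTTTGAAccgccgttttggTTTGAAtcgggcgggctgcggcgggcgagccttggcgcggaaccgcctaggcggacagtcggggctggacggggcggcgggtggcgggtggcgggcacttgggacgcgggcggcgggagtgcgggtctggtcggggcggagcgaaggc
E2f2 promoter: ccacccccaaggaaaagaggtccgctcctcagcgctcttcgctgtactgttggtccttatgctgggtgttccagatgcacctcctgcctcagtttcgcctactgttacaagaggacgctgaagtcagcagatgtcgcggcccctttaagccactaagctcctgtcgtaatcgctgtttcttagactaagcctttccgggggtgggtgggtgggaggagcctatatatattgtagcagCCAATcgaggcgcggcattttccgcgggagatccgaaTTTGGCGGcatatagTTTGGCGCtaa

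Of the members with CCAAT, 9 of 22 rose in miR-27 Tg, and of those with a CHR 4 of 9 and with an E2F-type word 4 of 9. Of the 8 with none of the 3 motifs, 2 rose (Tk1 and Tyms). The counts include Ccnb1 and Bub1 (with CCAAT) and Cdc6 (with an E2F-type word), which were not tested. Of the 37 tested members 35.1% rose, and of all tested genes 5.77%. Rising genes were not counted among all tested genes with each motif, so the counts show no effect of a motif. A match is a description of the letters, not a binding site or a cause.

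The 12 mitosis and nucleotide genes differed between libraries of the same genotype. Their summed level stood at 67.4, 50.9 and 64.3 RPKM in cluster Tg, at 34.2, 30.7 and 36.6 in miR-23 Tg, at 56.8, 32.9 and 43.7 in miR-24 Tg, 62.6, 71.7 and 84.2 in miR-27 Tg, 25.6, 24.9 and 27.6 in DKO, and 28.7, 57.2 and 29.1 in WT. WT replicate 2 lay within the range of cluster Tg and the other WT libraries lay below every library of cluster Tg, of miR-24 Tg and of miR-27 Tg. WT replicate 2 was the highest WT library for 32 of the 40 genes, and for 11 of these 12. In miR-24 Tg, replicate 1 was highest and replicate 2 lowest for 11 of the 12.

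The number of members called moved with the libraries used. Without WT replicate 2, 11 members were called in cluster Tg against WT, all higher, with Ccna2, Cdk1, Mki67, Top2a and Aurkb added and Mcm2 lost, and 16 in miR-27 Tg, with Mki67, Top2a and Birc5 added. Of all tested genes 5.61% and 5.52% were called at that setting. In cluster Tg, 2 members were called without cluster Tg replicate 1, 2 without WT replicate 1, 3 without WT replicate 3 and 4 without cluster Tg replicate 3. In miR-27 Tg, 6 were called without WT replicate 1, and 6 without WT replicate 3. Calls among all 11099 tested genes moved too. With 1 library left out they were 419 to 710 in cluster Tg (941 with all libraries) and 533 to 1223 in miR-27 Tg (993). Of the 35 calls in comparisons of 2 groups, 17 held with each of the 6 libraries concerned left out in turn. They were E2f2 and Cdkn2c in cluster Tg against WT, and Tk1, Tyms, Ccnb2, Ccnd3, Cdk2 and E2f2 in miR-27 Tg against WT. In cluster Tg against DKO, where 9 members were called without cluster Tg replicate 1 or 3, they were Mcm7, Rrm2, Tk1, Ccna2, Ccnb2, Mki67, Aurkb, E2f2 and Cdkn2c. A fit of only the 6 libraries of miR-27 Tg and WT called 0 members (and 43 of all tested genes), whereas leaving out miR-27 Tg replicate 3 and DKO replicate 3 from the full fit gave 15, beside 2218 of all 11099 tested genes. With those 2 libraries left out, 13 members were called in cluster Tg against WT (29.1% of all tested genes), 20 in cluster Tg against DKO (27.6%), 4 in miR-24 Tg, all lower (17.5%), and 2 in miR-23 Tg (3.89%). The share of all genes called was thus larger as well.

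Markers of other cells and of activated T cells also differed between genotypes, but did not follow the mitosis sum in every library. The summed level of 7 effector markers (Cd44, Il2ra, Cxcr3, Tbx21, Pdcd1, Ccl5 and Gzmk) was 71.2 to 141 RPKM in cluster Tg, 19.0 to 24.9 in miR-23 Tg, 61.3 to 127 in miR-24 Tg, 50.2 to 104 in miR-27 Tg, 10.8 to 13.7 in DKO and 17.4 to 19.1 in WT. Of the 7, 6 rose in cluster Tg, 6 in miR-24 Tg and 5 in miR-27 Tg. The summed level of 5 B cell markers (Ms4a1, Cd79a, Cd79b, Cd22 and Pax5) was 13.8 to 30.3 RPKM in cluster Tg, 3.82 to 14.9 in miR-23 Tg, 14.3 to 63.8 in miR-24 Tg, 22.3 to 124 in miR-27 Tg, 3.71 to 5.47 in DKO and 3.58 to 4.63 in WT, and limma called 0 in cluster Tg (4 had an unadjusted p under 0.05), 2 in miR-24 Tg and 5 in miR-27 Tg, all higher. That of Cd8a and Cd8b1 was 32.7 to 50.3 RPKM in cluster Tg, 29.7 to 46.5 in miR-24 Tg and 31.9 to 78.8 in miR-27 Tg, against 17.5 to 20.6 in WT. For 5 myeloid markers, WT libraries summed to 2.08 to 2.68 RPKM. The sums were 12.5 to 20.7 RPKM for cluster Tg, 8.59 to 118 for miR-24 Tg and 28.6 to 589 for miR-27 Tg. Of the 4 tested, limma called 1 higher in cluster Tg (Itgam, at 16.7, 10.1 and 9.69 RPKM) and all 4 higher in miR-27 Tg. It called 0 in miR-24 Tg, where all 4 had an unadjusted p under 0.05. In replicate 1 of miR-24 Tg, S100a8 and S100a9 stood at 46.3 and 50.3 RPKM. The sum of 5 erythroid markers reached 30.7 RPKM in cluster Tg, 75.4 in miR-24 Tg and 306 in miR-27 Tg, with a WT maximum of 50.7. Of 4 erythroid markers tested, limma called 0 in each of these genotypes, and 2 had an unadjusted p under 0.05 in miR-27 Tg. Of all 11099 tested genes, an unadjusted p under 0.05 was found for 2230 in cluster Tg, 1593 in miR-24 Tg and 2737 in miR-27 Tg. Of the 6 thymocyte markers, Rag2 was at 0 in all libraries and Rag1 and Ptcra were at most 0.0323 and 0.0408 RPKM. Dntt, the terminal transferase of antigen receptor recombination, stood at 17.8 to 24.9 RPKM in cluster Tg, 14.3 to 16.7 in miR-24 Tg and 10.8 to 23.4 in miR-27 Tg, against 6.29 to 7.93 in WT. It rose in all 3 (log2 1.43, 1.06 and 1.15, limma adjusted p = 0.00118, 0.0173 and 0.0059). Cd8a and Cd8b1 are the other thymocyte markers tested, and of the 3, 2 rose in cluster Tg, 2 in miR-24 Tg and 3 in miR-27 Tg. WT replicate 2, the WT library with the high mitosis sum, had the lowest B cell sum of WT and an effector sum inside the narrow WT range. Its erythroid sum was 50.7 RPKM, against 25.8 and 20.1 in the other WT libraries. The erythroid genes Hbb-b1 and Hba-a1 stood at 17.9 and 6.78 RPKM in it (2.06 and 0.486 in WT replicate 1, 0.223 and 0.397 in WT replicate 3). Of the myeloid genes, Lyz2 was higher in WT replicate 2 (0.918 RPKM, against 0.207 and 0.17 in the others) and Itgam lower (1.70, against 1.92 and 1.90). Csf1r was at most 0.064 RPKM in WT, and S100a8 and S100a9 were at 0 in WT replicate 2. In miR-24 Tg, replicate 1 was highest for the mitosis, effector and B cell sums alike. The part that such cells have in the results was not tested.

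**Figure D4:**
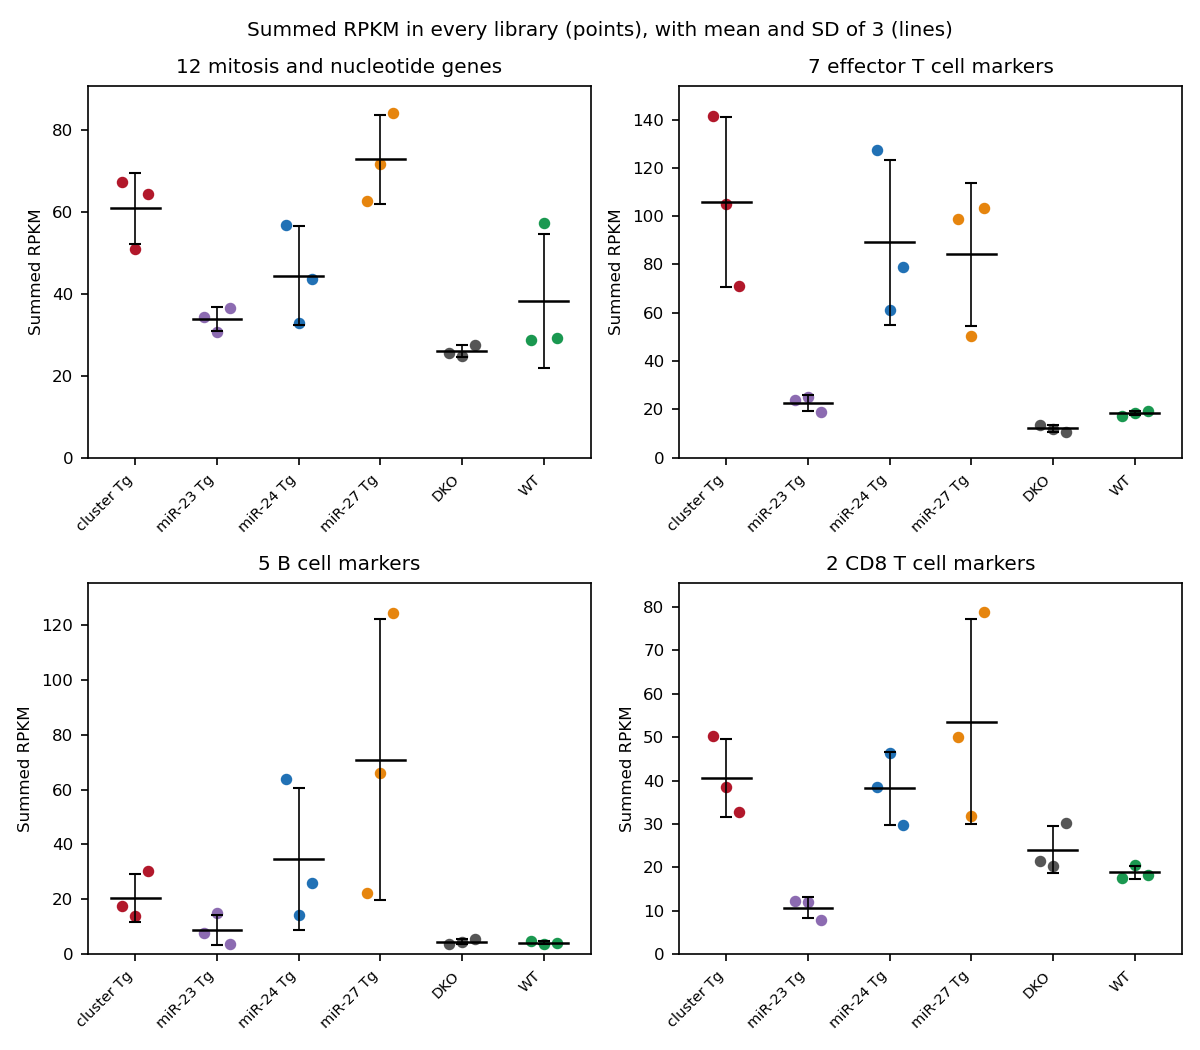
Summed RPKM in every library of the 6 genotypes for the 12 mitosis and nucleotide genes, 7 effector markers, 5 B cell markers and 2 CD8 T cell markers, with points for libraries and lines for the mean and SD of 3. WT replicate 2 (57.2 RPKM) stands above the other WT libraries in the mitosis sum and not in the effector or B cell sums.

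Further genes of the same processes were counted in the same way. Of all tested genes, 8.95% were called in miR-27 Tg, 8.48% in cluster Tg, 3.59% in miR-24 Tg and 11.3% in cluster Tg against DKO. Of 39 further mitosis genes tested, 12 rose in miR-27 Tg (30.8%), 1 in cluster Tg (2.56%), 1 in miR-24 Tg (2.56%) and 18 in cluster Tg against DKO (46.2%), and 0 fell in these comparisons. Called or not, 38 of the 39 had a log2 value above 0 in miR-27 Tg (median 0.58), 34 in cluster Tg (median 0.47, 18 with an unadjusted p under 0.05), 28 in miR-24 Tg (median 0.16) and 34 in cluster Tg against DKO (median 0.70). The medians over all tested genes were between -0.003 and 0.026, and 2230 of all 11099 had an unadjusted p under 0.05 in cluster Tg against WT. Cdc25b, a phosphatase that activates Cdk1, stood at 61.4, 54.1 and 52.4 RPKM in cluster Tg, at 56.9, 51.1 and 50.2 in miR-24 Tg and at 56.9, 45.4 and 46.6 in miR-27 Tg, against 25.6, 24.0 and 19.0 in WT. No library of the 3 transgenics overlapped WT. It rose by log2 values of 1.26, 1.18 and 1.09 (limma adjusted p = 0.000118, 0.000767 and 0.000473), and was the single further mitosis gene called in cluster Tg or miR-24 Tg against WT. Kif22, a kinesin of chromosome movement, stood at 6.08, 7.56 and 13.9 RPKM in miR-27 Tg, against 2.2, 3.96 and 2.68 in WT (log2 1.32, adjusted p = 0.00372).

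Of 48 further replication genes tested, 2 rose and 1 fell in miR-27 Tg (6.25% called, median log2 0.097), 0 rose and 2 fell in cluster Tg (4.17%, median 0.035), 1 fell in miR-24 Tg (2.08%, median 0.027), and 4 rose and 3 fell in cluster Tg against DKO (14.6%, median 0.030). Dbf4, the activator of the origin-firing kinase Cdc7, stood at 14.5, 16.4 and 14.2 RPKM in the cluster Tg libraries and at 13.6, 15.8 and 12.9 in those of miR-24 Tg, against 23.5, 27.5 and 25.2 in WT. Like Mcm2, it was lower in every library of both genotypes, and it fell by 0.72 in cluster Tg and by 0.81 in miR-24 Tg on the log2 scale (limma adjusted p = 0.0105 in each). Of 31 further G1 regulators tested, 3 fell in cluster Tg (9.68%, against 8.48% of all tested genes called) and 1 rose in miR-24 Tg (3.23%, against 3.59%). In cluster Tg against DKO 1 rose and 4 fell (16.1%, against 11.3%), and in miR-27 Tg 2 of these regulators fell (6.45%, against 8.95%). Myc, which drives growth and G1 entry, was among them, at 35.3, 37.1 and 25 RPKM in miR-27 Tg, against 45.7, 53.3 and 51.7 in WT. It fell by 0.63 on the log2 scale (adjusted p = 0.00798), in the same libraries in which Rrm2, Ccnb2 and E2f2 rose. Of the 118 further genes tested, limma called 0 in miR-23 Tg (7 had an unadjusted p under 0.05) and 0 in DKO (1 had). Of all 11099 tested genes, 847 in miR-23 Tg and 81 in DKO had an unadjusted p under 0.05.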

How the data were processed

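Per the labels' protocols, total RNA of sorted naive T cells was prepared with the miRNeasy kit, and libraries were made with the TruSeq RNA kit and sequenced on a HiSeq. Per the submitters' processing notes, the tools were STAR 2.2.0c and HOMER, and the mouse genome build was mm9. The gene models, the use of strand and the handling of shared reads are not stated in the labels or notes, and 14 of the 40 genes overlap exons of another gene in GENCODE M21, mostly on the opposite strand, so their values are uncertain. The authors deposited RPKM values, 1 column per library, with no read counts, so no counting interval is given. Estimated from the steps of low values, depth relative to WT replicate 1 was lowest in miR-27 Tg replicate 3 (0.633) and highest in cluster Tg replicate 3 (1.46).

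RPKM were taken as log2(RPKM + 1), and 11099 genes that reached 1 RPKM in 3 or more of the 18 libraries were kept. Genotype was the only term of a limma 3.58.1 model (R 4.3.3, eBayes with trend) over all 18 libraries, with Benjamini-Hochberg adjustment over all tested genes and a threshold of 0.05. The test was checked on simulated data. An exact permutation test of 3 libraries against 3 cannot give a p below 0.1. Values in every library are given for genes called anywhere. Of the further genes of these processes, at most the 6 with the smallest adjusted p in a comparison were named, and Ccnb1 and Bub1, which did not pass the filter, were described after their values were seen. The 40 genes, the marker lists and the further lists were chosen with earlier results of these data known. Some marker genes are not reported here. Alternatives were another pseudocount (0.1), no filter, quantile normalisation, a replicate block, a fit of only the 6 libraries compared, and leaving out libraries. Sequences were read from RefSeq (GRCm38.p6) and GENCODE M21 (GRCm38), another build than that of the deposited values.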

Additional observations from a re-analysis of the deposited data

How the results depend on the processing

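The number of members called against WT in cluster Tg (7) was 13 without the 2 libraries that stood apart, 5 to 7 with another pseudocount, no filter, quantile normalisation or a fit of only the 6 libraries, and 2 to 11 with 1 library left out. In miR-27 Tg (13) it was 0 in the fit of only the 6 libraries and 6 to 16 with 1 library left out. In miR-24 Tg (1) it was 2 with log2(RPKM + 0.1), 3 with quantile normalisation, 4 without the 2 libraries that stood apart, 2 in the fit of only the 6 libraries and 0 to 1 with 1 library left out. In miR-23 Tg (0) it was 2 without the 2 libraries that stood apart. In cluster Tg against DKO (14) it was 9 to 13 with 1 library left out. Calls among all tested genes moved as well when 1 library was left out. Against WT they were 419 to 710 in cluster Tg (941 with all libraries), 180 to 303 in miR-24 Tg (398) and 533 to 1223 in miR-27 Tg (993). In cluster Tg against DKO they were 561 to 901 (1259). The cause was not tested. Of 35 calls, 35 held with log2(RPKM + 0.1), 31 with no filter, 29 with quantile normalisation, 16 in the fit of only the 6 libraries, and none changed sign. H2afx was called lower against WT with quantile normalisation in cluster Tg (log2 -1.06, limma adjusted p = 0.0239) and miR-24 Tg (log2 -1.25, adjusted p = 0.0205). Top2a in miR-24 Tg, at a log2 of 0.02 against WT and not called, was -0.093 with quantile normalisation and -0.35 to 0.52 with 1 library left out (-0.30 without miR-24 Tg replicate 1, -0.07 without replicate 3, -0.35 without WT replicate 1 and -0.10 without WT replicate 3).

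The labels do not say what a replicate number marks. Of 30 same-numbered pairs of libraries 11 correlated over 0.1 (range -0.11 to 0.58), and in 37 of 60 cases a library correlated best with its own number in another genotype. Each case had 3 libraries to choose from, so matches by number were more frequent than an equal choice among them would give. The main fit took no pairing because the labels give none. Whether the numbers mark a shared batch was not tested. With a replicate block, which leaves out the 2 miR-23 Tg columns with no number, 5 members were called in cluster Tg (7.54% of all genes), 0 in miR-23 Tg (0.0541%), 1 in miR-24 Tg (2.98%), 9 in miR-27 Tg (7.68%) and 0 in DKO (0%) against WT, 12 in cluster Tg against DKO (9.83%) and 17 in the F test (14.9%). Of the 35 calls 24 held. Rrm2, Tk1 and Ccnb2 were then not called in cluster Tg, Ccna2, Aurkb, Plk1 and Cdkn2c in miR-27 Tg, and Rrm1, Tyms, Cdk1 and Top2a in cluster Tg against DKO.

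Several members lie near 1 RPKM, where log2(RPKM + 1) flattens differences and the number of reads is unknown. The miR-23 Tg columns that share a name are assumed to be separate libraries.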
